A study of Drosophila melanogaster with 8 samples.

Results

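Several small secreted peptides of the fly immune response were examined in head RNA: Drosomycin (Drs), Defensin (Def), the Daisho peptides (Dso1 and Dso2), the Baramicin A precursors (BaraA1 and BaraA2) and Listericin. These 7 genes were taken by their FlyBase symbols from the gene expression table. Of the 7, 5 (Def, Dso1, Dso2, BaraA1 and Listericin) matched 1 of the 14622 gene identifiers in the table through the annotation used here, and the other two, Drs and BaraA2, were not analysed here. The libraries came from heads of 3-day-old males grown at 18 °C. In the EA group (y, sc, AdarE374A; 4 libraries) the only Adar protein carries the E374A change that removes its RNA editing activity, and in the WT group (white Canton-S; 4 libraries) Adar is intact. Per the study's methods, the mutation was made with CRISPR, together with a silent base change in Adar, and the single line was backcrossed to white Canton-S. The groups therefore differ also at y and sc and at any sequence that stayed linked to Adar, and these differences cannot be told apart from the loss of editing. The labels do not say whether the 4 libraries of a group came from separate fly collections, so p-values measure the spread between these libraries, which may be technical.

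Flies answer infection largely through the Toll and Imd pathways, which end in NF-kappaB family factors that switch on genes for secreted peptides. The fat body is the main source of these peptides in the blood, and blood cells and surface epithelia make some of them too. Drosomycin, the Daisho peptides and Baramicin A are mainly Toll outputs known for their part in defence against fungi, Defensin acts chiefly on Gram-positive bacteria, and Listericin is an antibacterial peptide whose induction has been tied to PGRP-LE and the JAK-STAT pathway.

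Each library held between 9930607 and 24342035 reads over the table, and these totals overlapped between EA (12517490 to 24342035) and WT (9930607 to 19173154). Levels are given as normalized read counts, which are reads divided by 1 size factor per library. The groups were tested with limma on log2(normalized count + 1) for each of the 10347 genes whose mean was at least 10, with a Benjamini-Hochberg adjustment over these genes. Of them 125 (1.21%) had an adjusted p under 0.05, a count that ran from 36 (without WT replicate 2) to 184 (without EA replicate 2) when 1 library was left out. The head label was checked with 8 eye and 7 neuron markers. All 8 of the former and 6 of the latter were in the table, none of these was at 0 in any library, and ninaE, the major rhodopsin of the eye, had a mean normalized count of 116416. Of the 8 eye markers, 3 (Arr1, Arr2 and inaC) were higher in EA in limma, by 0.56 to 0.83 on the log2 scale, and trpl had the lowest value, -0.26 ± 0.08 (adjusted p = 0.218). Of the 6 neuron markers 1 had an unadjusted limma p under 0.05 (12.7% of all tested genes). Limma and edgeR called 0 of the 6 (1.21% and 1.22%), and DESeq2 called 1 (5.16%). They ran from -0.16 ± 0.12 (futsch, the most abundant; adjusted p = 0.646) to 0.95 ± 0.20 (Syt1; adjusted p = 0.0557).

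The 5 peptide genes did not share 1 pattern over the libraries. The Daisho genes were above WT in most EA libraries, Def was below WT in most of them, BaraA1 was seen in a single EA library, and Listericin lay within or below the WT range. None of the 5 (0) had an adjusted p under 0.05 in limma, where 1.21% of all tested genes did. At an unadjusted p under 0.05 there were 2 (Def and Dso2), against 12.7% of all tested genes. With edgeR, on the whole reads recovered from the table, 0 of the 5 were called (1.22% of all tested genes). With DESeq2 on the same reads 1 of the 5, Dso2, was called (5.16% of all tested genes). The limma log2 fold changes of EA over WT had a median of 1.39, where the median over all tested genes was 0.00. Without EA replicate 3 the median was 0, which is the value of BaraA1, then without a read in any library. BaraA1 passed the minimum for testing through the library in which it was high. The median of 1.39, the value of Dso1, therefore does not support a shift of the peptides as a set. It is the same with BaraA1 at its lower bound given below, but that bound lies above the median and could not have changed it. Def and Listericin had values below 0. In at least 3 of the 4 EA libraries, 2 of the 5 (Dso1 and Dso2) were above every WT library and 1 (Def) was below, where 12.1% and 11.1% of all tested genes were.

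**Figure D1:**
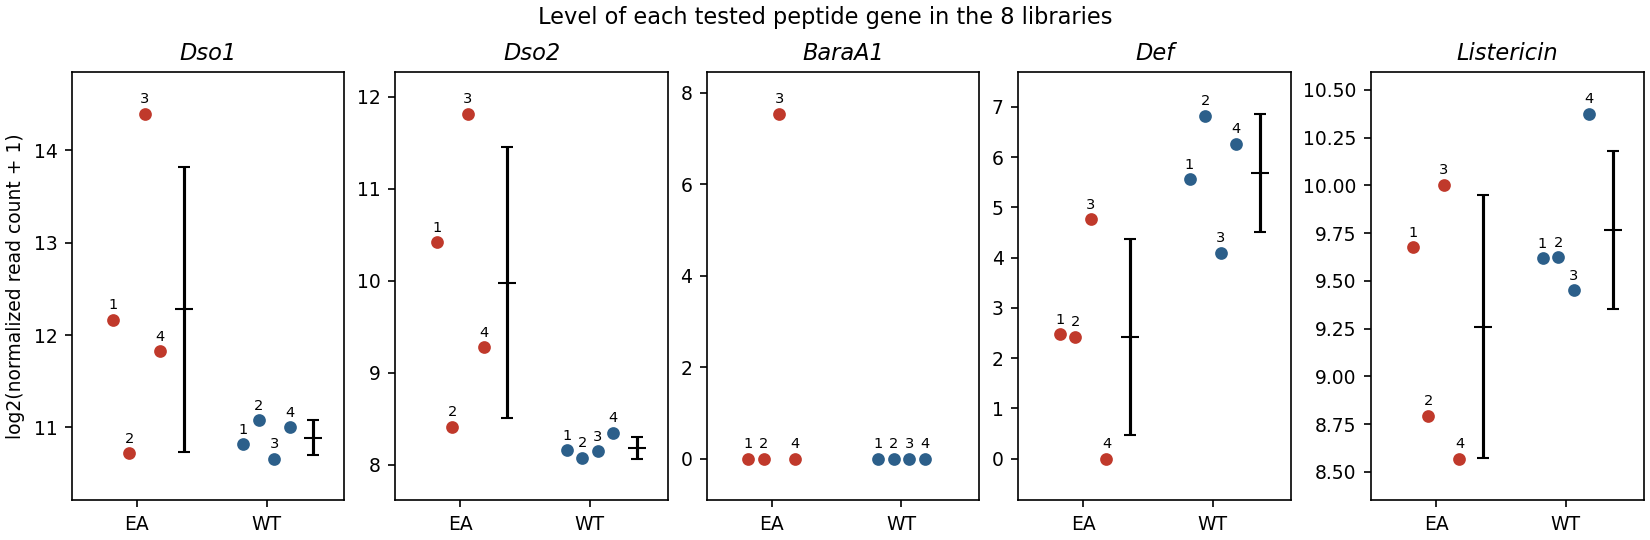
Level of the 5 peptide genes in each library, as log2(normalized read count + 1), with EA libraries in red and WT libraries in blue. Numbers are replicate numbers, and the black marks are the mean and SD of a group (n = 4), left out for BaraA1. EA replicate 3 is the highest EA library in every panel, and the 4 WT libraries of Dso1 and Dso2 lie close together.

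The Daisho genes lie next to each other on 2R and are read in opposite directions. Dso1 (FBgn0040653, 2R, 20868496 to 20869321, minus strand) and Dso2 (FBgn0067905, 2R, 20870392 to 20870678, plus strand) are separated by 1070 bp, with their starts facing each other (positions here and below are from the BDGP6.54 annotation). Dso1 had a normalized count of 4594, 1681, 21593 and 3631 in EA replicates 1 to 4. The WT libraries had 1801, 2161, 1616 and 2047. EA replicates 1, 3 and 4 were above every WT library, and EA replicate 2 was inside the WT range. Replicate 3 was 9.99-fold above the highest WT library. EA averaged 7875 ± 9225 and WT 1906 ± 245 (SD, n = 4), and the highest EA library was 12.8-fold above the lowest, against 1.34-fold in WT. Limma put the change at 1.39 ± 0.62 on the log2 scale (SE; adjusted p = 0.395), with an exact permutation p of 0.114, two-sided. In bulk RNA from whole heads, more cells that make a peptide and more RNA per cell cannot be told apart.

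Dso2 had a normalized count of 1369, 339, 3609 and 618 in EA replicates 1 to 4. In WT the values were 284, 268, 282 and 325. All 4 EA libraries were above all 4 WT libraries, which held for 3.96% of tested genes, but EA replicate 2 was only 1.05-fold above the highest WT library. EA averaged 1484 ± 1482 and WT 289.8 ± 24.2 (SD, n = 4). Limma put the change at 1.80 ± 0.59 on the log2 scale (SE; adjusted p = 0.217). The exact permutation p was 0.0286, the smallest that 4 libraries against 4 can give. In DESeq2 the log2 fold change was 2.36 with an adjusted p of 0.0205, which became 0.0609 without EA replicate 3. Without EA replicate 3 the limma value was 1.19 for Dso2 and 0.68 for Dso1 (adjusted p = 0.200 and 0.350). Without EA replicate 2, DESeq2 called both, with adjusted p-values of 0.000238 for Dso2 and 0.0184 for Dso1, where the latter was 0.103 with all libraries. In limma the adjusted p without EA replicate 2 was 0.118 for Dso1 and stayed just above the threshold for Dso2.

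Both Daisho genes had the same order of EA libraries, with replicate 3 highest, then 1, then 4, then 2. The ratio between them varied over the libraries. For each normalized count of Dso1 there were 0.298, 0.202, 0.167 and 0.170 of Dso2 in EA replicates 1 to 4. The WT libraries had 0.158, 0.124, 0.174 and 0.159. EA replicates 1 and 2 were above the highest WT library in this ratio, and EA replicates 3 and 4 were within the WT range.

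The Baramicin A gene BaraA1 (FBgn0053470, 2R, 13411739 to 13413085, plus strand) encodes a precursor that is cut into several short peptides. It had 169 reads in EA replicate 3, a normalized count of 184.9, and 0 reads in each of the other 7 libraries. Set against a floor of 3 reads per library, its level in EA replicate 3 was at least 39.0-fold higher than in any WT library. Over the groups, the EA mean was at least 13.2-fold above the WT floor, but this mean rests on EA replicate 3 alone and does not describe the group. Limma gave an adjusted p of 0.753, and the difference is 0 without that library. The exact permutation p was 1. With reads in 1 library only, every assignment gives the same absolute difference, so this p was fixed in advance. DESeq2 gave no adjusted p for this gene. BaraA2 (FBgn0288447, 2R, 13407011 to 13408358) lies 3380 bp away on the same strand and its exons total 1160 bp, against 1159 bp for BaraA1. Reads that fit both copies could have been split or discarded in the counting, whose settings are not given in the sources used here, so the 0 values of BaraA1 are uncertain. Its exons also overlap those of CG30059, on the opposite strand, by 272 bp. CG30059 had 0 reads in EA replicate 3 and a normalized count of at most 1.08 in any library.

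Defensin (Def, FBgn0010385, 2R, 10054178 to 10054576, minus strand) went the other way. Its normalized count was 4.58, 4.39, 26.3 and 0 in EA replicates 1 to 4, from 4, 5, 24 and 0 reads. In WT it was 46.3, 112.1, 16.2 and 76.1, from 35, 71, 15 and 110 reads. EA replicates 1, 2 and 4 were below every WT library, and EA replicate 3 was within the WT range, above WT replicate 3. Against the mean of the 4 WT libraries, and with its 0 set to a floor of 3 reads, EA replicate 4 was at least 36.4-fold lower. EA averaged 8.81 ± 11.8 and WT 62.7 ± 41.0 (SD, n = 4). Limma put the change at -3.27 ± 0.93 on the log2 scale (SE; adjusted p = 0.154), with an exact permutation p of 0.0571.

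The call for Def turned on EA replicate 3. Without that library the log2 fold change was -4.05 (limma adjusted p = 0.0478), and edgeR and DESeq2 gave adjusted p-values of 0.0492 and 0.00208, where they were 0.173 and 0.195 with it. In each other limma fit that left out 1 library the adjusted p stayed above 0.05. All 8 libraries together held 264 reads of Def, so its values are coarse. Def lies within magu, a gene on the opposite strand, without overlap between their exons. For magu the EA libraries lay from 401.5 to 438.4 normalized counts and the WT libraries from 412.8 to 518.4, with a change of -0.11 ± 0.09 on the log2 scale (SE, n = 4; limma adjusted p = 0.690).

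Listericin (FBgn0033593, 2R, 11241745 to 11242194, minus strand) had a normalized count of 817.0, 443.0, 1025 and 378.7 in EA replicates 1 to 4. The WT libraries had 786.0, 787.9, 699.1 and 1327. EA replicates 2 and 4 were below every WT library, EA replicates 1 and 3 were within the WT range, and WT replicate 4 was the highest of all. EA averaged 665.9 ± 307.7 and WT 900.1 ± 287.9 (SD, n = 4). The log2 change was -0.51 ± 0.32 (SE; limma adjusted p = 0.589; exact permutation p = 0.286). On the same scale the SD between libraries was 0.69 in EA and 0.41 in WT. Genes of the JAK-STAT pathway and its targets were listed beside it. All 11 had a row and 8 passed the minimum, with 4 at an unadjusted limma p under 0.05 (12.7% of all tested genes). Limma and edgeR called 0 of these 8 (1.21% and 1.22%), and DESeq2 called 2 (5.16%). Their median log2 fold change was 0.65. The transcription factor Stat92E had one of 0.41 ± 0.08 (limma adjusted p = 0.0535). Among the targets, the stress gene TotM had a normalized count of 74.5, 4.39, 815.0 and 61.4 in EA replicates 1 to 4, and WT ran from 1.08 to 9.47 (log2 fold change 3.96 ± 1.25; adjusted p = 0.197). The receptor gene dome had the lowest value, -0.18 ± 0.07 (adjusted p = 0.350). TotM was above WT in EA replicates 1, 3 and 4. In EA replicate 4, where Listericin was at its lowest, 3 of the 8 tested genes of this list were above the WT range and 1 below. Of all tested genes 19.9% and 18.7% were. The median log2 ratio of the list to the WT mean was 0.09 in that library. A link between these genes and Listericin was not tested.

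Each EA library was then read on its own against the 4 WT libraries. BaraA1 was tested only because of its reads in EA replicate 3, so its place there was fixed by the minimum and it is left out of the counts for that library. EA replicate 3 was the highest EA library for 4 of the other 4 peptide genes, which was the case for 35.9% of all tested genes, and the highest of all 8 libraries for 2 of 4 (21.7% of all tested genes). In that library 2 of the 4 (Dso1 and Dso2) were above every WT library and 0 below, where 28.6% and 28.7% of all tested genes were. The same 2 genes were over 2-fold above the WT mean, as were 4.87% of all tested genes. The log2 ratios to the WT mean in EA replicate 3 were 3.64 for Dso2, 3.51 for Dso1, 0.24 for Listericin and -0.92 for Def. Of the 10347 tested genes, 45 had a larger ratio in this library than Dso2 and 48 a larger one than Dso1.

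In EA replicate 1 the Daisho genes, 2 of the 5, were above every WT library (25.6% of all tested genes) and Def was the 1 below (23.9%). The log2 ratio was 2.24 for Dso2 and 1.28 for Dso1, so these 2 were over 2-fold above the WT mean, as were 3.19% of all tested genes. EA replicate 4 likewise had both Daisho genes above the WT range, at 1.09 for Dso2 and 0.94 for Dso1, and 2 below it, Def with 0 reads and Listericin at -1.20 (19.9% of all tested genes were above and 18.7% below). Only Dso2, 1 of the 5, was over 2-fold above the WT mean there (2.7% of all tested genes). EA replicate 2 was closest to WT for the Daisho genes, at 0.23 and -0.17, and had 1 peptide gene (Dso2) above and 2 (Def and Listericin) below the WT range (18.8% and 20.4% of all tested genes), with 0 of the 5 over 2-fold above the WT mean (1.17% of all tested genes).

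**Figure D2:**
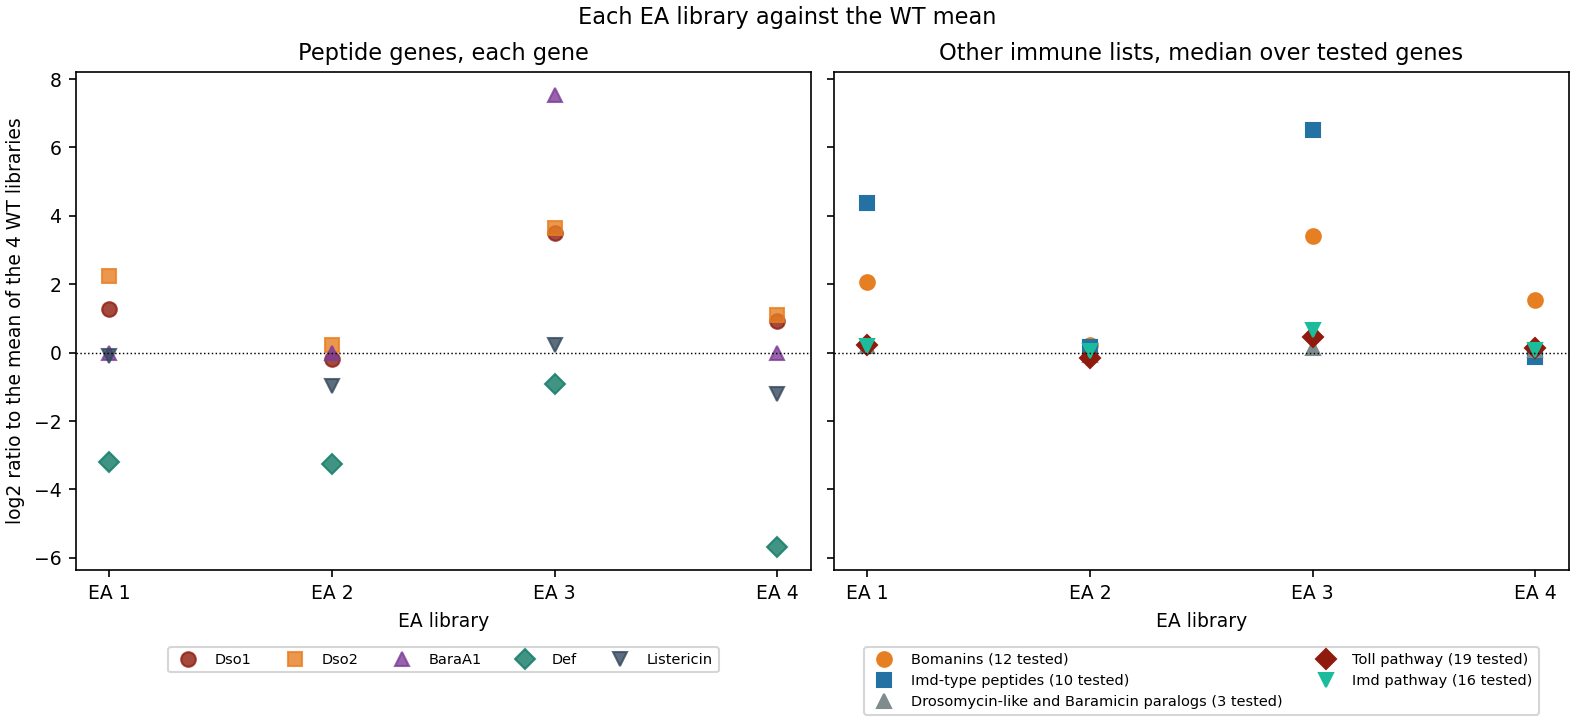
Log2 ratio of each EA library to the mean of the 4 WT libraries. The left panel has 1 point per peptide gene, and the right panel has the median over the tested genes of 5 other immune lists. In EA replicate 4 the Bomanins, with a median of 1.54, and the Daisho genes, at 0.94 and 1.09, lie above the Imd-type peptides, with a median of -0.13. Ratios of genes with 0 reads in a group depend on the 1 added before taking logs.

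Other peptide families were read beside these values. The Bomanins are short Toll-induced peptides encoded mostly in 1 cluster. All 12 listed were tested, with 11 at an unadjusted limma p under 0.05 (12.7% of all tested genes). Limma and edgeR called 0 of these 12 (1.21% and 1.22%), and DESeq2 called 9 (5.16%). Their median log2 fold change was 1.84, and 12 of 12 were above every WT library in each of EA replicates 1, 3 and 4, as were 25.6%, 28.6% and 19.9% of all tested genes. In EA replicate 2, 7 of 12 were above the WT range and 2 below it (18.8% and 20.4% of all tested genes). BomS3, the most abundant of them, had a normalized count of 3129, 828.0, 7710 and 1818 in EA replicates 1 to 4, and WT ran from 678.8 to 766.8 (log2 fold change 1.78 ± 0.54; limma adjusted p = 0.178). BomS5 had the largest value (2.07 ± 0.49; adjusted p = 0.0874).

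The Imd-type list held antibacterial peptides such as Diptericins, Attacins and Cecropins. All 12 listed had a row and 10 passed the minimum, with 2 at an unadjusted limma p under 0.05 (12.7% of all tested genes). Limma and edgeR called 0 of the 10 (1.21% and 1.22%), and DESeq2 called 4 (5.16%). The median log2 fold change of these 10 was 2.92, which lies between CecA1 (2.86) and CecA2 (2.98). All 10 were above every WT library in EA replicates 1 and 3 (25.6% and 28.6% of all tested genes). CecA1, CecA2 and CecC, with means of 21.7, 19.9 and 18.2, reached the minimum only through EA replicate 3. They had 123.6, 111.6 and 98.5 there, so their places in that library were favoured by the minimum. The median of 2.92, set by CecA1 and CecA2, was favoured in the same way. So was the count at an unadjusted p, which holds CecA1. In EA replicate 2, 1 was above the WT range and 2 below it (18.8% and 20.4% of all tested genes), and in EA replicate 4, 1 was above and 1 below (19.9% and 18.7%). Mtk, the most abundant, is induced through both pathways and was at 3.14 ± 1.85 on the log2 scale (limma adjusted p = 0.547), and Dro had the largest value (3.93 ± 1.40; adjusted p = 0.267). In EA replicate 4 the median log2 ratio to the WT mean was 1.54 for the Bomanins and -0.13 for the Imd-type peptides, beside 1.09 for Dso2 and 0.94 for Dso1. Def, which is placed with the Imd outputs in most accounts, was below WT in EA replicate 1, where the Imd-type median was 4.38. All these lists share the same 8 libraries, so their values are not independent of those of the peptide genes.

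Paralogs of the peptide genes were listed as well. Of 8 Drosomycin-like and Baramicin paralogs, 7 had a row and 3 passed the minimum. An unadjusted limma p under 0.05 was found for 2 of the 3 (12.7% of all tested genes). Limma, edgeR and DESeq2 called 0 of these paralogs (1.21%, 1.22% and 5.16%). Drsl5, a Drosomycin-like gene and the most abundant of them, had a normalized count of 1511, 1771, 2487 and 2078 in EA replicates 1 to 4, and WT ran from 2135 to 3028 (log2 fold change -0.41 ± 0.16; limma adjusted p = 0.312). Drsl4 had the largest value, at 0.66 ± 0.28 (adjusted p = 0.371). BaraC, a Baramicin gene, was at 0.08 ± 0.13 (adjusted p = 0.867).

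The listed Toll and Imd pathway genes had lower median differences than the Bomanins. Of 20 Toll pathway genes 19 were tested, with 4 at an unadjusted limma p under 0.05 (12.7% of all tested genes). Limma, edgeR and DESeq2 called 0 of the 19 (1.21%, 1.22% and 5.16%). Their log2 fold changes ran from 0.00 (cact, the inhibitor that holds the Toll factors in the cytoplasm) to 1.06 ± 0.64 (PGRP-SD, a bacterial sensor), with a median of 0.20. The Toll factor Dif, the most abundant, was at 0.09 ± 0.12 (adjusted p = 0.847). In EA replicate 3, 18 of the 19 were above every WT library (28.6% of all tested genes), and the median log2 ratio to the WT mean was 0.45. In EA replicate 2, 2 of the 19 were above and 6 below the WT range (18.8% and 20.4% of all tested genes), with a median of -0.15. EA replicates 1 and 4 had 11 and 9 above (25.6% and 19.9%) and medians of 0.21 and 0.15. Of 16 Imd pathway genes all 16 were tested, with 4 at an unadjusted limma p under 0.05 (12.7% of all tested genes). PGRP-SC2, with 99.6 in EA replicate 3 and at most 5.73 elsewhere, was tested only through that library. Its place there was favoured by the minimum. Limma and edgeR called 0 of the 16 Imd pathway genes (1.21% and 1.22%), and DESeq2 called 2 (5.16%). They ran from -0.14 ± 0.35 (PGRP-LB) to 2.09 ± 0.85 (PGRP-SB1, above Dso1 and Dso2), with a median of 0.20. Rel, the Imd factor, was at 0.51 ± 0.22 (adjusted p = 0.362). In EA replicate 3, 13 of the 16 were above every WT library and 1 below (28.6% and 28.7% of all tested genes). The median log2 ratio to the WT mean was 0.67 there. EA replicates 1, 2 and 4 had 7, 1 and 6 above (25.6%, 18.8% and 19.9%). These libraries had 2 below each (23.9%, 20.4% and 18.7%).

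**Figure D3:**
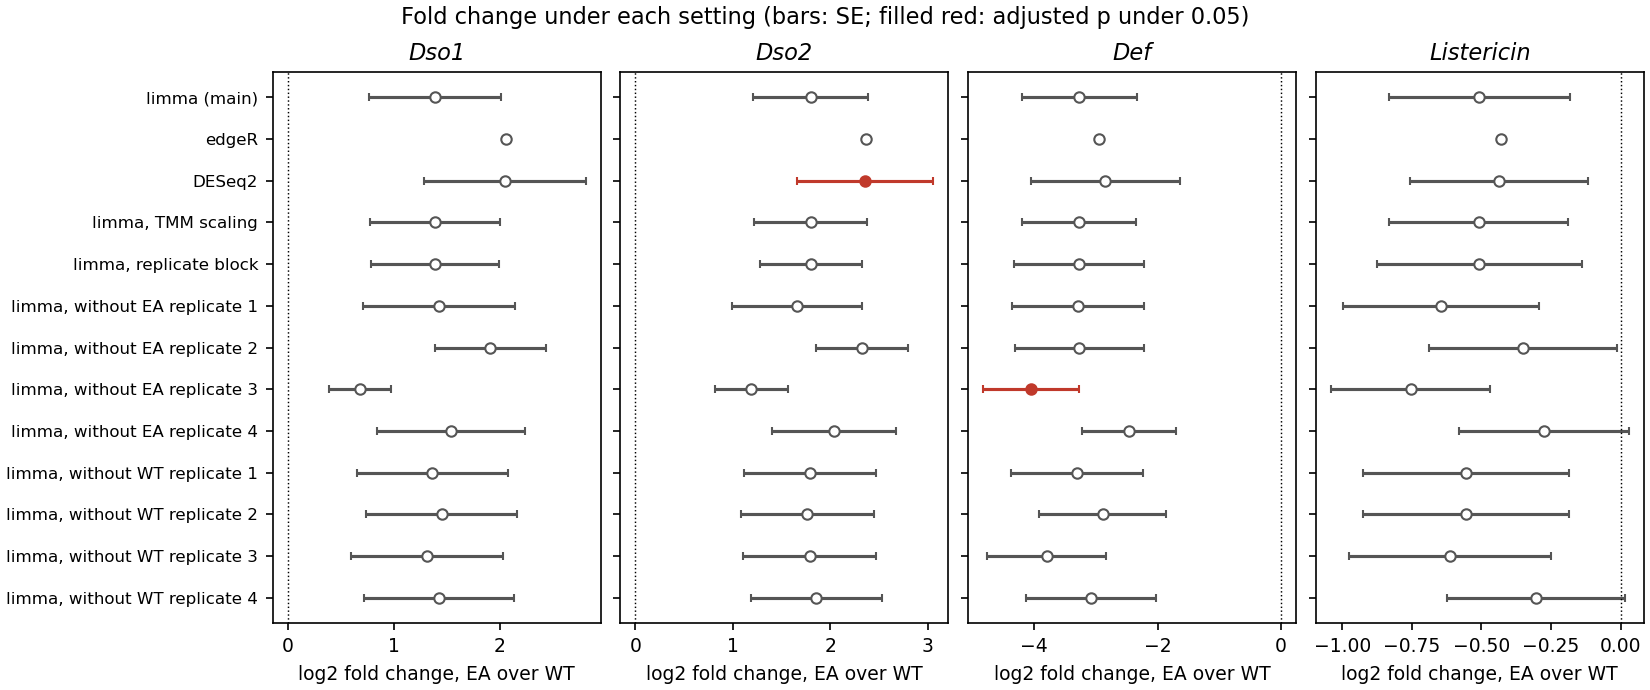
Log2 fold change of EA over WT for 4 peptide genes under limma, edgeR, DESeq2, another scaling, a replicate block and with each library left out. Bars are standard errors (none for edgeR), and filled red points have an adjusted p under 0.05. Of the points shown, Dso2 with DESeq2 and Def without EA replicate 3 are the 2 that passed.

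Levels of different genes were compared per kilobase of exon. In WT, Dso1 was highest at 2486 ± 320 normalized counts per kb (mean ± SD, n = 4), followed by Listericin at 2000 ± 640, Dso2 at 1299 ± 109, Def at 157.1 ± 103 and BaraA1 at 0. The libraries of Dso1 (2107 to 2818) and Listericin (1554 to 2950) overlapped in this measure. The ranges of Listericin and Dso2 (1204 to 1456) did not overlap, and Def was below all of these. In EA the Daisho genes led, with Dso1 at 10267 ± 12028 and Dso2 at 6654 ± 6646 per kb, and Listericin followed at 1480 ± 684. The EA ranges of these 3 genes overlapped. Dso1 has a short and a long annotated transcript. With the short one of 418 bp as its length, its WT level would be 4561 per kb and above the range of Listericin.

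Markers of tissues that make these peptides also differed between libraries. The 10 fat body markers, all in the table, summed to 110456, 58081, 112837 and 106660 normalized counts in EA replicates 1 to 4, and WT sums ran from 39477 to 52625. EA replicate 2 was the lowest EA library for this sum, as for Dso1 and Dso2. The EA sums were above the WT sums in all 4 libraries, but most of the sum was apolpp, a lipid carrier of the blood, at 1.08 ± 0.22 on the log2 scale (SE, n = 4; limma adjusted p = 0.0569). Lsp2, a storage protein, had the largest value in the list, 2.87 ± 0.67 (adjusted p = 0.0864), and the takeout gene (to) had the lowest, -0.68 ± 0.37 (adjusted p = 0.501). Lsp1beta and Hnf4 were also below 0, at -0.55 ± 0.27 and -0.11 ± 0.10 (adjusted p = 0.446 and 0.741). The median log2 ratio of the 8 tested markers to the WT mean was 0.64, 0.09, 1.10 and 0.55 in EA replicates 1 to 4, and single WT libraries ran from -0.49 to 0.39. In EA replicate 2 it was thus within the WT range, with 3 markers above WT and 2 below. EA replicate 4 had 3 markers above and 3 below (19.9% and 18.7% of all tested genes). EA replicate 3 had 5 above and 0 below (28.6% and 28.7% of all tested genes). The 2 markers below the minimum were Fbp2 and Lsp1gamma. Fbp1, with 51.6 in EA replicate 1 and at most 19.7 elsewhere, passed it only through EA replicate 1. Of the 8 tested, 0 passed in limma and 4 had an unadjusted limma p under 0.05 (1.21% and 12.7% of all tested genes). In edgeR 2 passed (1.22%) and in DESeq2 3 (5.16%). At most 1 of the 10 fat body markers was at 0 in a library.

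The 10 blood cell (hemocyte) markers summed to 10876, 11004, 20768 and 20509 in EA replicates 1 to 4, and WT sums ran from 10648 to 12965. EA replicates 3 and 4 were above WT, with Hml, a defining marker, at 4449 and 3387 there and between 852.1 and 1031 in WT. EA replicate 1, where Dso2 was above WT, had a hemocyte sum within the WT range, but abundant markers such as Col4a1 weigh most in it. In that library 3 of the 9 tested markers were above every WT library and 3 below (25.6% and 23.9% of all tested genes). Those above were Hml, at 1268, eater and srp, and those below were NimC1, Pxn and Col4a1. Of 9 hemocyte markers tested, 3 had an unadjusted limma p under 0.05 (12.7% of all tested genes). Limma and edgeR called 0 of the 9 (1.21% and 1.22%), and DESeq2 called 1 (5.16%). They ran from -0.35 ± 0.14 (Pxn; adjusted p = 0.319) to 1.41 ± 0.43 (eater; adjusted p = 0.177), with Col4a1, the most abundant, at 0.29 ± 0.18 (adjusted p = 0.581). Of 11 midgut markers 8 were in the table, and they summed to 267.0, 399.9, 1655 and 374.1 in EA and to between 146.9 and 960.6 in WT, with 3 or 4 of them at 0 in each EA library and 1 to 4 in each WT library. Much of the EA sums was the amylase gene Amy-d, at 257.8, 204.8, 1433 and 363.2 in EA replicates 1 to 4 with WT from 102.5 to 149.99, so that all 4 EA libraries were above WT (limma log2 fold change 1.78 ± 0.51; adjusted p = 0.157). The related amylase gene Amy-p had 200.2 in EA replicate 3 and at most 5.73 elsewhere (2.11 ± 1.48; adjusted p = 0.632), and the lysozyme gene LysP had 790.4 in WT replicate 4, 189.0 in EA replicate 2 and at most 1.58 elsewhere. The protease genes Jon65Aiv, betaTry and lambdaTry had at most 11.8 normalized counts in any library. Amy-p passed the minimum only through EA replicate 3. Of the 4 midgut markers tested, 1 was called by limma (1.21% of all tested genes). It was Vha100-4, a proton pump subunit, lower in EA (log2 fold change -3.93 ± 0.39, limma adjusted p = 0.00164). In EA replicate 3 the 6 neuron markers had the lowest sum of all libraries, at 95221, where the other libraries ran from 99158 to 141995. The part of these tissue differences in the peptide levels was not tested.

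**Figure D4:**
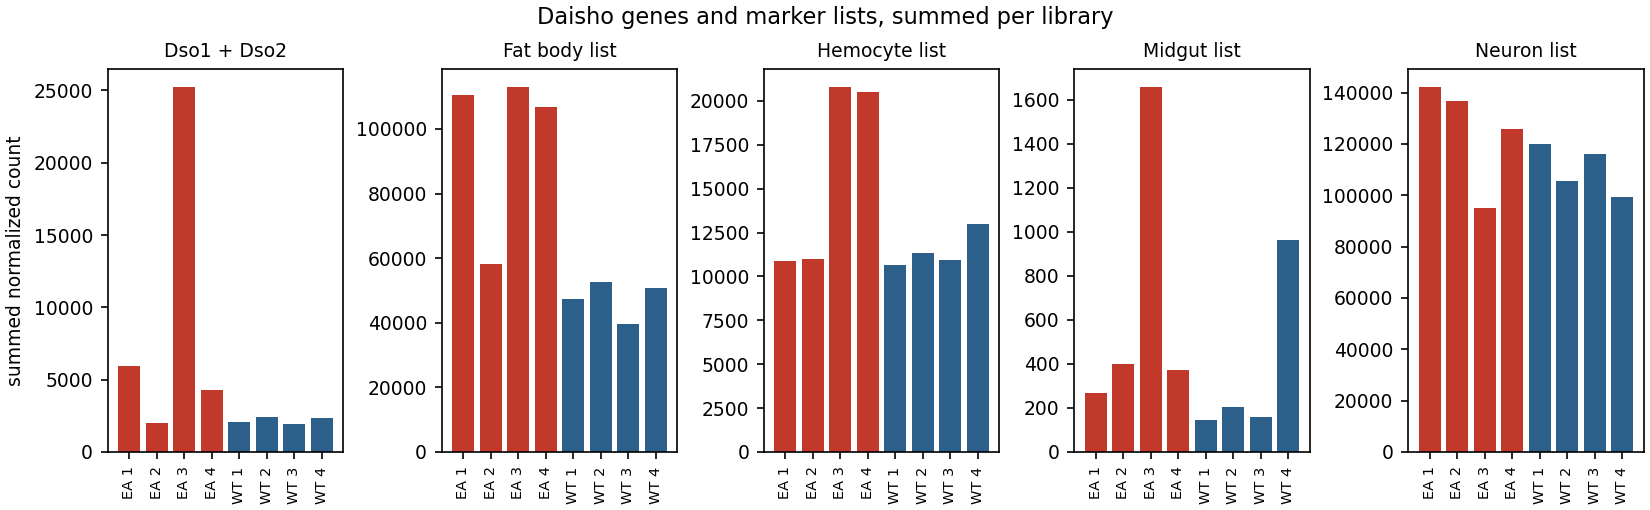
Summed normalized read counts of the Daisho genes and of 4 marker lists in each library (EA red, WT blue). The fat body sum, which is mostly apolpp, is high in EA replicates 1, 3 and 4. The hemocyte sum is high in EA replicates 3 and 4, and the Daisho sum is highest in EA replicate 3.

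The genes whose pattern over the 8 libraries was most like that of the peptide genes were found by Pearson's r with their mean profile, after centring each gene. The profile followed EA replicate 3, which BaraA1 sets apart most, and BaraA1 was tested only through that library. The mean also joins Def with the Daisho genes, which differed in direction, so the profile is not that of any single peptide gene. The closest were CaBP1, aspr, Taf9, Picot, mino, Dp1, TBC1D5 and Tdh, with r between 0.949 and 0.983 over 8 libraries. All 8 were highest in EA replicate 3, which follows from a search with a profile that peaks there. CaBP1, which encodes a protein of the endoplasmic reticulum, had a normalized count of 328.8, 274.2, 504.3 and 281.2 in EA replicates 1 to 4, and WT ran from 293.5 to 356.4. The group difference of these 8 genes was small, with log2 fold changes from -0.01 to 0.16 and limma adjusted p-values from 0.856 to 0.995.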

How the data were processed

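The submitters' processing notes name TopHat, featureCounts, Subread and DESeq2, and the builds dm3 and BDGP5. The annotation and count settings were not given in the sources used here. The deposited signal of each library was a gene read count that the authors divided by 1 size factor with DESeq2, and the deposited table also held its mean over libraries. The authors' own comparison was not used here: its log2 fold changes and their standard errors (deposited on the log2 scale), its Wald statistic (a deposited score) and its deposited p-values. Whole reads were recovered, since each value was a whole multiple of its library's smallest value, within 0.01 (100% of values).

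The test was limma 3.58.1 in R 4.3.3 (eBayes with a trend) on log2(normalized count + 1), for genes with a mean of at least 10, fitted to all 8 libraries without covariates. P-values were two-sided and Benjamini-Hochberg adjusted, with a threshold of 0.05. Folds on this scale are understated for low genes. Single genes were also compared by exact permutation over 70 assignments, whose smallest p is 0.0286. The limma and edgeR fits were tested on simulated data. Alternatives were edgeR 4.0.16 and DESeq2 1.42.0 on whole reads, other scalings, pseudocounts, minimums and variance models, a replicate block, and each library left out. The fits with edgeR or DESeq2 that leave out a library were chosen after the data were seen. Floors of 3 reads cover counting error only. Precision rests on the spread between libraries and on totals of 9930607 to 24342035 reads.

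Symbols and positions are from the Ensembl annotation (release 115, BDGP6.54), matched by FlyBase identifier (14023 of 14622). It is not the build of the counts, so positions were not used to recompute any. The peptide genes and lists were chosen with earlier results of these data known. The genes named are the peptide genes, the 8 most similar genes and, of each list, the most abundant, the largest and the smallest change and any gene past the threshold. For the Bomanins and the Imd-type peptides the gene with the smallest change is not named. Hml, magu, CG30059, CecA1, CecA2, CecC, PGRP-SC2 and further single markers are named outside this rule.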

Additional observations from a re-analysis of the deposited data

Results flagged for a closer look

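In 11 groups of 4 libraries, taken from the 5 peptide genes (on the log2 scale) and the total reads, the gap between the highest or lowest library and the next was compared with Dixon's 95% critical value, as a share of the group's range. Chance alone puts about 5% of groups past it. In 1 of the 11 groups a library lay apart: BaraA1 in EA replicate 3, where the gap was the whole range (1), because the other EA libraries had 0 reads of it. Its normalized count there was 184.9. BaraA1 was tested only through its reads in that library, so this outcome was fixed by the minimum and cannot be set against the 5%.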

How the results depend on the processing

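The number of genes with an adjusted p under 0.05 was 125 in limma and 532 in DESeq2, 79 with a minimum mean of 50 and 82 without the variance trend. With 1 library left out in limma it ran from 36 to 184, and in DESeq2 leaving out EA replicate 3 gave 466 and leaving out EA replicate 2 gave 661. The number of peptide genes called was 0 in limma and 1 in DESeq2 (Dso2, log2 fold change 2.36). It ran from 0 to 1 with 1 library left out, and was 1 in edgeR and 1 in DESeq2 without EA replicate 3 (Def, -4.56 and -4.46) and 2 in DESeq2 without EA replicate 2 (Dso1, 2.38, and Dso2, 2.69). With 1 library left out in limma, the log2 fold change ran from -4.05 to -2.46 for Def, 0.68 to 1.91 for Dso1, 1.19 to 2.32 for Dso2, -0.75 to -0.28 for Listericin and 0 to 2.51 for BaraA1. For BaraA1 it was 0 without EA replicate 3 in limma and edgeR, because the other libraries held no read of it. For the other changes the cause was not tested. Def had too low a mean for the minimum of 50, and BaraA1 too.

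Def, Dso1, Dso2 and Listericin kept their direction in every setting that gave a value, other scalings and pseudocounts included. The median log2 fold change of all tested genes was 0.08 with total reads as the scaling and from -0.02 to 0.00 with the others. Same-numbered libraries did not pair: the correlation of their deviations ran from -0.23 to 0.19 and was over 0.1 in 1 of 4 pairs, and 2 of 8 libraries correlated best with their own number. With the replicate number as a block 26 genes and 0 peptide genes were called. Def, with 264 reads in all, and BaraA1, with 169, are limited by depth.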
